A study of Drosophila melanogaster with 6 samples.

Results

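Cytochrome P450 genes were followed in RNA-seq counts from brains of Drosophila melanogaster larvae. The members were all genes of the deposited table whose FlyBase symbol is Cyp followed by a number. That spelling matched 80 of the 14150 genes, of which Cyp1 and Cyp40 are cyclophilins, a family of protein-folding enzymes that shares only the abbreviation. The remaining 78 are P450 genes of 20 families and 44 subfamilies, 1 of them the pseudogene Cyp6t2Psi. A further 7 symbols of this spelling, among them Cyp4c3 and Cyp6a21, were not analysed here. P450 genes of ecdysone synthesis that carry other names were left out of the family and are given only for comparison.

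The CIN group held w; worniu-gal4, UAS-bub3-i larvae and the ctrl group w; worniu-gal4, UAS-gfp-i larvae, so both carried the worniu-gal4 driver and an RNAi transgene. The driver acts in neuroblasts, the neural stem cells, while whole brains were sequenced. In CIN the transgene targets Bub3, a gene of the spindle assembly checkpoint, and in ctrl it targets gfp, which flies lack. All larvae are described as females at late L3, 96 h after egg laying at 29 °C. Each genotype had 3 libraries, 1 in each of batches 4, 5 and 6, and each library pooled 3 brains.

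P450 enzymes are heme proteins that insert an oxygen atom into small molecules. Most insect members sit in the endoplasmic reticulum and take electrons from the reductase Cpr, and the mitochondrial clan takes them from a ferredoxin. Some make or break down hormones and cuticle lipids, and many others act on plant toxins and insecticides, mainly in midgut, fat body and Malpighian tubules, the insect kidney. Insect P450 genes are grouped by descent into the CYP2, CYP3, CYP4 and mitochondrial clans, and several subfamilies stand in tandem arrays.

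The libraries held 24668180 to 26292208 counts. Values are CPM (read counts scaled to equal depth) on TMM-scaled library sizes, and 3 counts, the most that a count of 0 allows, came to 0.110 to 0.122 CPM. Bub3 measured 80.1, 96.4 and 91.4 CPM in CIN 4, 5 and 6, against 149, 123 and 144 CPM in ctrl 4, 5 and 6, and its groups did not overlap. Under edgeR, in its quasi-likelihood form and after Benjamini-Hochberg correction, Bub3 missed the threshold (adjusted p = 0.333), and under DESeq2 it reached it (adjusted p = 0.00364). Markers of brain cells were present throughout, with elav of neurons at 204 to 390 CPM, repo of glia at 105 to 164 CPM and dpn of neuroblasts at 5.26 to 13.4 CPM. Log2 fold changes of CIN over ctrl were negative in 5 of 5 neuroblast genes, with a median of -0.57. They were positive in 4 of 5 neuron genes and 6 of 8 glia genes. EdgeR called none of these genes, and DESeq2 called 1, the neuron gene fne, lower in CIN (adjusted p = 0.0188). In such bulk tissue, fewer cells of a type and less RNA per cell cannot be told apart. Summed markers of ring gland, hemocytes and Malpighian tubules varied far more. The fat body sum varied less, but most single genes of that list varied widely. The 6 measured ring gland genes summed to 2164, 26.2 and 682 CPM in CIN 4, 5 and 6, against 34.2, 1439 and 810.0 CPM in ctrl 4, 5 and 6. The 8 hemocyte genes summed to 491, 193 and 86.7 CPM in CIN 4, 5 and 6, against 58.8, 622 and 119.6 CPM in ctrl 4, 5 and 6. The 8 fat body genes summed to 387, 388 and 423 CPM in CIN 4, 5 and 6. In ctrl 4, 5 and 6 the sums were 867, 503 and 445 CPM, so the groups did not overlap. Log2 fold changes were negative in 7 of 8 fat body genes, with a median of -1.86, and edgeR called none. Within that list Lsp1beta ran from 4.59 CPM in CIN 5 to 178 CPM in ctrl 4. Lsp1alpha ran from 1.86 CPM in CIN 5 to 81.7 CPM in ctrl 4, and Fbp1 from 4.18 CPM in CIN 6 to 91.9 CPM in ctrl 4. The abundant genes apolpp and Lpin ran only from 117 to 224 CPM and from 168 to 232 CPM. For the 4 Malpighian tubule genes CIN 4 gave 135 CPM in total and the other libraries 7.13 to 14.2 CPM. The 6 salivary gland genes summed to 11.3, 18.6 and 2.57 CPM in CIN 4, 5 and 6. In ctrl 4, 5 and 6 they summed to 81.4, 31.7 and 20.4 CPM, so these groups did not overlap either. Log2 fold changes were negative in 6 of 6 salivary gland genes, with a median of -1.91, and edgeR called none. What the fat body and salivary gland sums owe to such tissue was not tested.

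Of the 78 P450 genes, 30 were expressed, taken as at least 1 CPM in all 3 libraries of a genotype. That is 38.5%, against 62.2% of all genes in the table. The CYP3 clan had 18 of 36 members expressed, the CYP4 clan 5 of 29, the mitochondrial clan 5 of 9 and the CYP2 clan 2 of 4. In all 6 libraries 23 members reached 1 CPM and 7 reached 10 CPM, while 27 stayed under 1 CPM everywhere. Subfamilies were likewise uneven. Both members of Cyp9f, Cyp28d and Cyp6g were expressed, 4 of 10 of Cyp6a, 2 of 3 of Cyp4p and 1 of 2 of Cyp4g. No member was expressed among the 5 genes of Cyp4d, the 4 of Cyp313a, the 3 of Cyp4ac or the 2 each of Cyp9b, Cyp12d and Cyp309a.

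**Figure D1:**
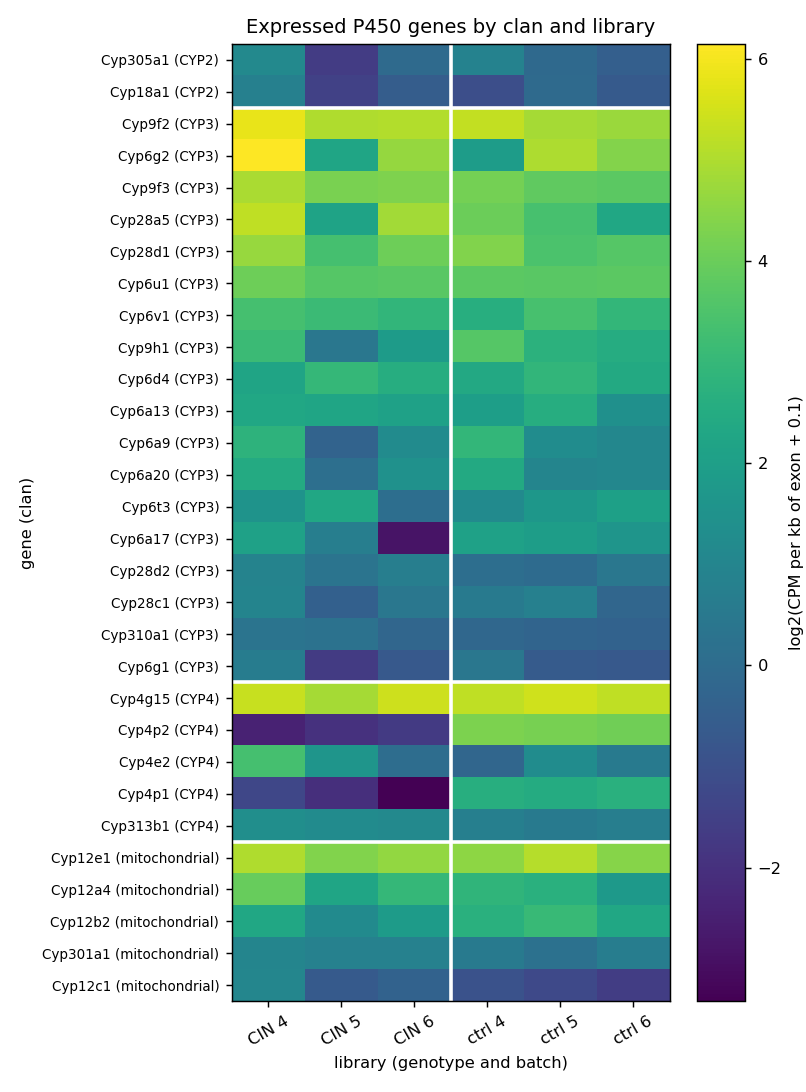
Level of the 30 expressed P450 genes (rows, grouped by clan and ordered by mean level) in each library (columns), as log2 of CPM per kilobase of exon plus 0.1. Cyp4p2 and Cyp4p1 are dark in all CIN libraries, Cyp6a17 is dark in CIN 6, and Cyp6g2 and Cyp28a5 change widely between libraries of the same genotype.

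Per kilobase of exon, Cyp4g1 and Cyp6g2, described further on, had high means that did not hold in all libraries. The mean of Cyp4g1 rested on ctrl 5 alone. Cyp6g2 was low in CIN 5 and ctrl 4, at 4.62 and 3.70 CPM per kilobase, and stood at 21.1 to 70.9 elsewhere. The highest levels held in all 6 libraries belonged to Cyp4g15, Cyp9f2 and Cyp12e1. Cyp4g15 (X:11477058-11483233), a relative of Cyp4g1 described in the fly nervous system, averaged 38.8 CPM per kilobase, with libraries at 29.0 to 44.3. Cyp9f2 (3R:12403340-12406028) averaged 36.1 CPM per kilobase, with libraries at 26.03 to 56.9, and Cyp12e1 (3R:10434789-10436704), of the mitochondrial clan, averaged 25.9, with libraries at 20.2 to 33.9. Cyp4g15 stood above Cyp9f2 per kilobase in 3 of 6 libraries, so their order does not exceed the spread, while it stood above Cyp12e1 in 6 of 6. Cyp9f2 stood above Cyp12e1 in 5 of 6. Cyp9f3, Cyp28a5, Cyp28d1 and Cyp6u1 followed with means of 19.1, 17.0, 16.03 and 13.7 CPM per kilobase, and the median of the 30 expressed members was 3.98.

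A group of members was steady. Cyp6u1 measured 33.7, 25.3 and 26.6 CPM in CIN 4, 5 and 6, against 27.2, 26.3 and 27.2 CPM in ctrl 4, 5 and 6, the narrowest range of all tested members (highest over lowest 1.33). Cyp4g15 measured 108, 76.2 and 114 CPM in CIN 4, 5 and 6, against 98.5, 117 and 101 CPM in ctrl 4, 5 and 6. Its groups overlapped, and CIN 5 was the low library. Cyp12e1 measured 52.8, 32.7 and 39.4 CPM in CIN 4, 5 and 6, against 37.1, 55.0 and 35.1 CPM in ctrl 4, 5 and 6, with CIN 4 and ctrl 5 high. Cyp6v1 ran from 22.6 to 30.5 CPM in CIN and from 18.2 to 31.1 CPM in ctrl, and Cyp6d4 from 8.396 to 14.6 CPM in CIN and from 9.68 to 14.03 CPM in ctrl. None of these 5 genes passed edgeR's test (adjusted p = 0.888, 0.916, 0.984, 0.886 and 0.991 in the order named). Their log2 fold changes lay between -0.083 and 0.13, and the sign of each turned when 1 or more libraries were left out.

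Steadiness was not typical of the family. The expression filter of the test kept 52 of the 78 members (66.7%), against 71.2% of all genes. Of these, 9 kept their highest library under 2 times the lowest, against 67.5% of all tested genes. In 15 of the 52 (28.8%) the highest library was at least 10 times the lowest, against 5.22% of all tested genes. The members were also low, with a median of the mean level of 2.15 CPM against 29.8 CPM for all tested genes. Whether that difference in level accounts for the wider ranges was not tested. Of the 52 members, 29 had their highest value in CIN 4 (55.8%), against 23.0% of all tested genes, and 0 in CIN 6, against 6.97%. CIN 5 held the highest value of 4 members (7.69%), against 24.2% of all tested genes. In ctrl 4 the count was 7 (13.5%), against 16.9%, in ctrl 5 it was 10 (19.2%), against 19.8%, and in ctrl 6 it was 2 (3.85%), against 9.11%.

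**Figure D2:**
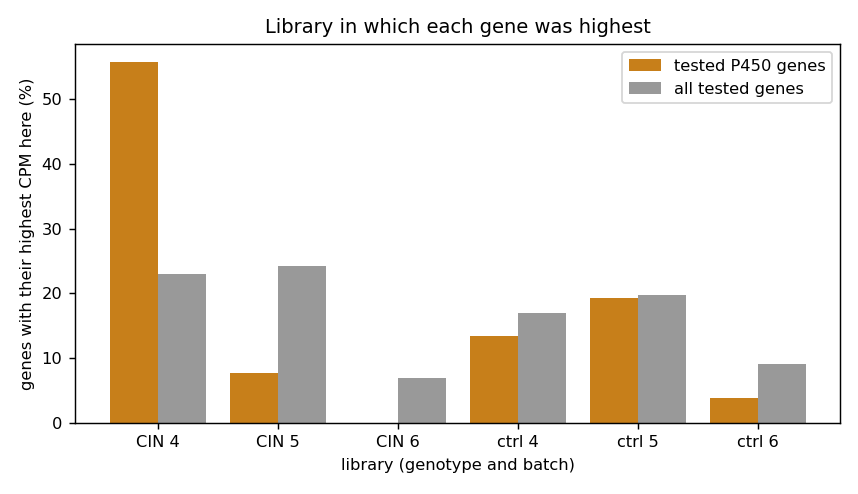
Percent of the 52 tested P450 genes (orange) and of all 10074 tested genes (grey) whose highest CPM fell in each library. CIN 4 held the highest value of 55.8% of the P450 genes and 23.0% of all genes.

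The widest range belonged to Cyp4g1 (X:467057-469335), the oxidative decarbonylase with which oenocytes make cuticular hydrocarbons. It measured 0.875, 0.871 and 1.06 CPM in CIN 4, 5 and 6, against 0.763, 1408 and 1.17 CPM in ctrl 4, 5 and 6. Ctrl 5 thus stood alone, and the other 5 libraries lay close together. FASN2, a fatty acid synthase of oenocytes, measured 0.716, 0.277 and 0.404 CPM in CIN 4, 5 and 6, against 0.603, 80.9 and 0.234 CPM in ctrl 4, 5 and 6, so it was high in the same library. The other measured oenocyte list genes, spidey and Cpr, which many tissues express, ranged from 101 to 132 CPM and from 61.4 to 134 CPM. The part of oenocyte tissue in the Cyp4g1 value was not tested. Its log2 fold change was -8.96 ± 3.03 (SE; edgeR, adjusted p = 0.603), and without ctrl 5 it was -0.044 (edgeR, adjusted p = 0.984). The sum over all 78 members showed the same library. It was 870.3, 378 and 519 CPM in CIN 4, 5 and 6, against 545, 1982 and 463 CPM in ctrl 4, 5 and 6, and ctrl 5 came to 575 CPM without Cyp4g1.

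Cyp6g2 (2R:12188338-12190377), described in the corpus allatum, the part of the ring gland that makes juvenile hormone, measured 141, 9.18 and 49.3 CPM in CIN 4, 5 and 6, against 7.35, 63.1 and 41.9 CPM in ctrl 4, 5 and 6. CIN 4 was the highest library and ctrl 4 and CIN 5 the lowest. The ring gland sums given above were also highest in CIN 4 and lowest in CIN 5 and ctrl 4. Its jhamt member, the methyltransferase of juvenile hormone synthesis, measured 39.8, 0 and 12.3 CPM in CIN 4, 5 and 6, against 0.040, 37.7 and 15.5 CPM in ctrl 4, 5 and 6. Cyp6g2 was thus higher in CIN in batch 4, with a log2 difference of 4.17, and lower in batch 5, with -2.72. Its log2 fold change of 0.83 ± 1.01 (SE) did not pass edgeR's test (adjusted p = 0.836), and it was -0.36 without CIN 4. The part of ring gland tissue in these values was not tested. The neighbours of Cyp6g2 in the genome, Cyp6g1 and Cyp6t3, did not share the whole pattern. Cyp6g1, known for resistance to DDT, measured 3.02, 0.435 and 1.10 CPM in CIN 4, 5 and 6. In ctrl 4, 5 and 6 it measured 2.57, 1.18 and 1.09 CPM. Like Cyp6g2, it was highest in CIN 4 and low in CIN 5, but it was not low in ctrl 4. Cyp6t3, needed in the prothoracic gland for ecdysone synthesis, measured 4.78, 8.31 and 1.65 CPM in CIN 4, 5 and 6, against 3.78, 5.35 and 6.89 CPM in ctrl 4, 5 and 6, and was highest in CIN 5. Cyp6g1 and Cyp6g2 share 94 exon bases on opposite strands, so a few of their reads cannot be told apart.

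**Figure D3:**
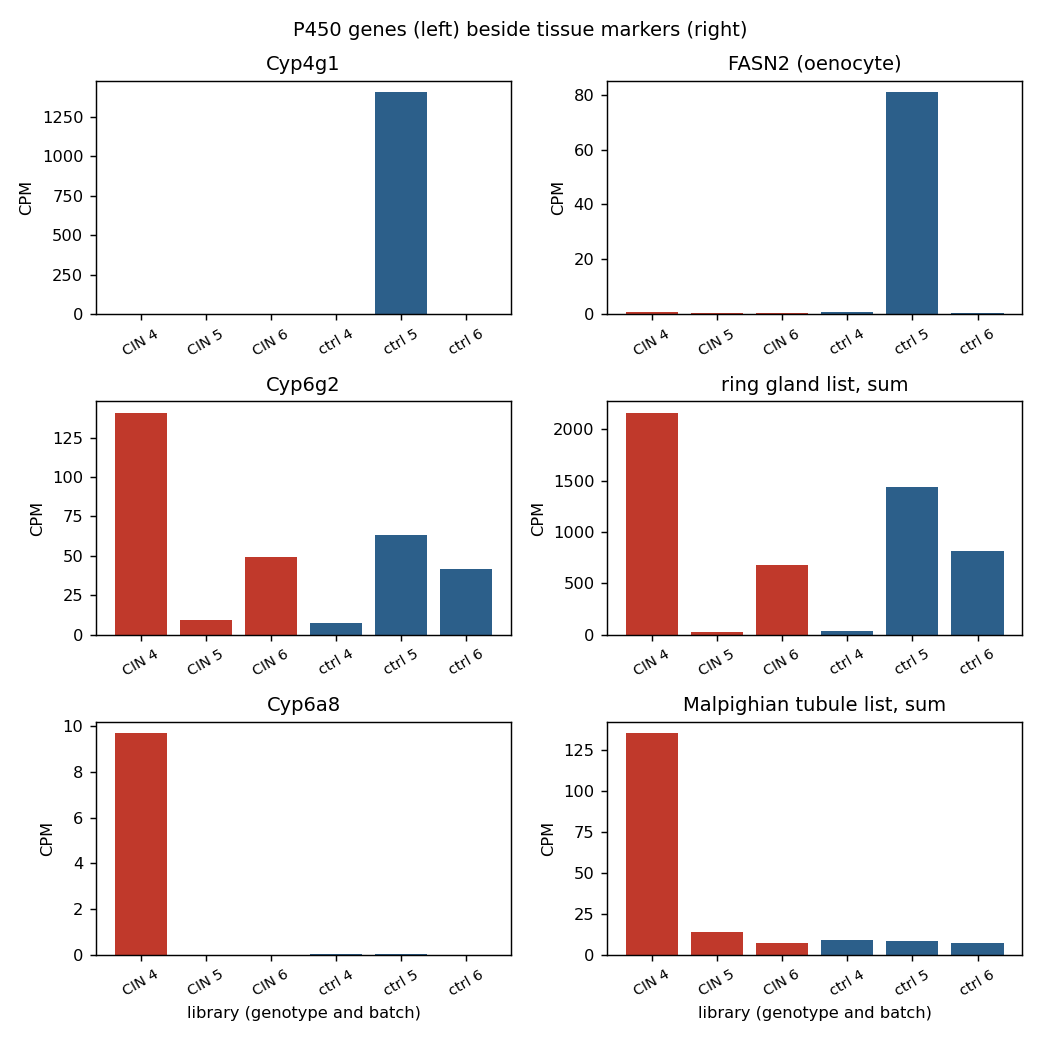
CPM of Cyp4g1, Cyp6g2 and Cyp6a8 (left) beside FASN2, the summed ring gland list and the summed Malpighian tubule list (right) in each library, CIN in red and ctrl in blue. Cyp4g1 and FASN2 are high in ctrl 5 alone (1408 and 80.9 CPM), and Cyp6a8 and the Malpighian tubule list are high in CIN 4 (9.71 and 135 CPM).

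A further 5 members reached at least 10 times their median library in CIN 4, with at least 1 CPM there. Cyp6a23 measured 25.7, 0.554 and 0.770 CPM in CIN 4, 5 and 6, against 3.46, 1.66 and 0.740 CPM in ctrl 4, 5 and 6. Cyp6a8, inducible by foreign compounds, had 244, 0 and 0 counts in CIN 4, 5 and 6, against 1, 1 and 0 counts in ctrl 4, 5 and 6. Cyp4p3 had 140, 0 and 1 counts in CIN 4, 5 and 6, against 33, 11 and 12 counts in ctrl 4, 5 and 6. The near-identical copies Cyp12d1-p and Cyp12d1-d, also known as inducible, stood at 3.98 and 3.46 CPM in CIN 4 and at or under 0.362 CPM elsewhere, and the counting could have split their reads. Cyp4e2, at 19.5 CPM in CIN 4 and 1.45 to 5.58 CPM elsewhere, was highest there too. In the same library Uro, the urate oxidase of Malpighian tubules, measured 65.7 CPM, against 0 to 0.321 CPM in the other 5. ZnT35C and NaPi-T, further genes of that list, measured 23.0 and 41.2 CPM in CIN 4 and at most 0.910 and 2.81 CPM elsewhere. Best2, the remaining gene of the list, was not high there, at 5.45 CPM in CIN 4 and 4.83 to 10.4 CPM elsewhere. The 5 measured midgut genes did not share this pattern, with 3.58 CPM in total in CIN 4 and 19.5 CPM in ctrl 4. The part of Malpighian tubule tissue in the CIN 4 values was not tested.

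Setting CIN against ctrl asks which P450 genes respond in the brain when Bub3, rather than gfp, is targeted in neuroblasts. Of the 52 tested members, 0 rose and 1 fell, Cyp4p2 (edgeR, adjusted over 10074 genes). The background was 0.0993% of all tested genes, with 0.0496% in each direction. With no adjustment, 4 of 52 members were higher at p under 0.05 (edgeR), against 4.13% of all genes, and 5 of 52 lower, against 3.76%. DESeq2 called 0 members higher, against 0.519% of all genes, and 2 lower, against 0.549%. It gave no adjusted p for Cyp4g1, Cyp6a23 and Cyp4p3, so these could not be called by it. In 7 of 52 members every CIN library lay above every ctrl library, against 7.1% of all tested genes. In 4 of 52 every CIN library lay below, against 8.2%. Each of these lower counts includes Cyp4p2, and each but the adjusted edgeR count also includes Cyp4p1. Both genes were known beforehand from earlier results of these data, so the lower counts are not independent evidence about the family. Log2 fold changes were positive in 33 of 52 members, against 51.3% of all tested genes, and negative in 19 of 52, against 48.7%. The members' median was 0.14, against 0.0075 over all tested genes. That median rested on CIN 4, since it was -0.15 without that library. It was 0.35, -0.41 and 0.14 in batches 4, 5 and 6, so its sign was not shared. The members' median SE was 0.58, against 0.19 over all tested genes, which limits what could pass.

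Cyp4p2 (FBgn0033395, 2R:9237512-9239831) was nearly absent from CIN brains. It measured 0.159, 0.277 and 0.367 CPM in CIN 4, 5 and 6, against 34.4, 32.4 and 30.4 CPM in ctrl 4, 5 and 6. These are 4, 7 and 10 counts in CIN, against 856, 800 and 780 counts in ctrl. The groups were far apart, and the ctrl libraries lay close together. The CIN values lie near the floor, so the size of its fold change rests on few counts. Its log2 fold change was -6.88 ± 0.29 (SE; edgeR, adjusted p = 0.000712), with the same sign in 3 of 3 batches, and its ctrl libraries stood at 17.1 to 19.4 CPM per kilobase. With batch as a replicate block the adjusted p was 0.0557 (edgeR), the lowest of all genes in that fit. Without any 1 library it stayed called, with log2 fold changes of -7.19 to -6.63.

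Cyp4p1 (FBgn0015037, 2R:9240041-9242139), the next gene on the same strand, was also low in CIN. It had 13, 6 and 0 counts in CIN 4, 5 and 6, against 252, 232 and 271 counts in ctrl 4, 5 and 6, which is 0.252 ± 0.259 CPM in CIN and 10.03 ± 0.580 CPM in ctrl (SD, n = 3 each). Its groups were also far apart. Its log2 fold change of -5.30 ± 0.91 (SE) did not pass edgeR (adjusted p = 0.212) and passed DESeq2 (adjusted p = 4.96e-13). No role in the brain is given here for either gene. Cyp4p2 and Cyp4p1 were known from earlier results of these data, so their low CIN values are described here and are not independent evidence.

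The third gene of the array, Cyp4p3 (2R:9242320-9244410), had 0 and 1 counts in CIN 5 and 6 and 140 in CIN 4, against 11 to 33 in ctrl, so its groups overlapped. All 3 genes lie within the span of hig, on the opposite strand, and share no exon base with it. The gene hig, which encodes a protein of the synaptic cleft, measured 67.1, 95.1 and 95.01 CPM in CIN 4, 5 and 6, against 136, 87.7 and 91.8 CPM in ctrl 4, 5 and 6. Its groups overlapped, and its log2 fold change was -0.29 ± 0.22 (SE; edgeR, adjusted p = 0.749). Within 20 kb of Cyp4p2 and Cyp4p1, 7 genes were tested, themselves included. Of the other 4, beside Cyp4p3, none passed edgeR's test. Pkn, a protein kinase gene, measured 106, 106 and 100.2 CPM in CIN 4, 5 and 6, against 88.5, 85.1 and 82.9 CPM in ctrl 4, 5 and 6 (log2 fold change 0.28 ± 0.09, edgeR, adjusted p = 0.603). In the array, Cyp4p2 and Cyp4p1 were thus low in all 3 CIN libraries and Cyp4p3 in CIN 5 and 6 but not in CIN 4. The groups carry different RNAi transgenes, and a difference between the fly stocks at this array cannot be told apart from an effect of the knockdown.

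**Figure D4:**
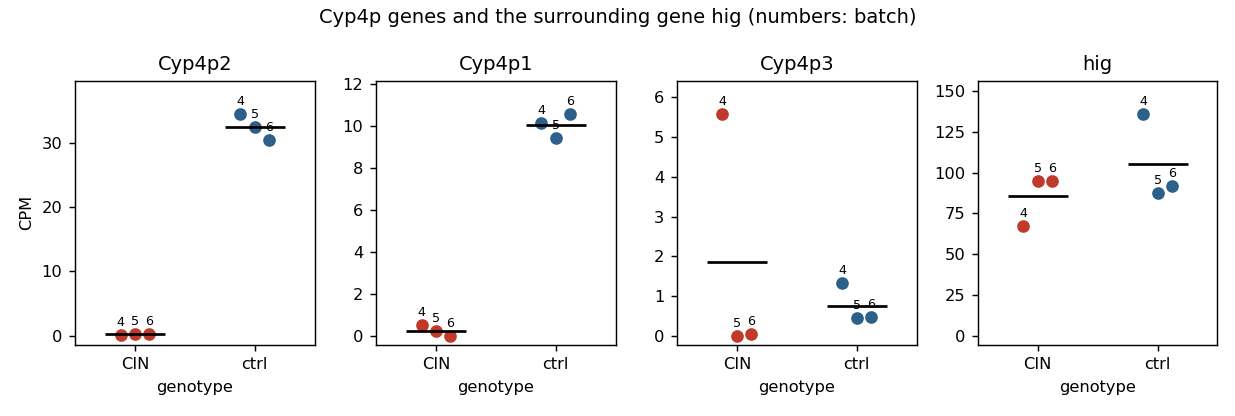
CPM of Cyp4p2, Cyp4p1, Cyp4p3 and the surrounding gene hig in CIN (red) and ctrl (blue), with the batch number at each point and the group mean as a line. Cyp4p2 and Cyp4p1 lie near 0 in all CIN libraries, while hig overlaps between the genotypes.

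Apart from Cyp9f3, the remaining members at an unadjusted p under 0.05 were low or uneven. None of them, Cyp9f3 included, passed the adjusted test. Those higher in CIN were Cyp9f3, Cyp312a1, Cyp12c1 and Cyp6a2. Cyp9f3 (3R:12396007-12398929) was the most abundant, at 63.0, 38.2 and 40.2 CPM in CIN 4, 5 and 6, against 36.2, 29.1 and 27.6 CPM in ctrl 4, 5 and 6. Its lowest CIN library lay just above its highest ctrl library, with a log2 fold change of 0.61 ± 0.22 (SE; edgeR, adjusted p = 0.603). Its tandem neighbour Cyp9f2 measured 99.96, 56.5 and 58.1 CPM in CIN 4, 5 and 6, against 68.6, 51.9 and 45.8 CPM in ctrl 4, 5 and 6. It was higher in CIN in 3 of 3 batches, but its groups overlapped (log2 fold change 0.37 ± 0.26, edgeR, adjusted p = 0.740). Cyp12c1 of the mitochondrial clan measured 3.66, 1.03 and 1.28 CPM in CIN 4, 5 and 6, against 0.804, 0.608 and 0.428 CPM in ctrl 4, 5 and 6. Cyp312a1 measured 3.34, 0.514 and 0.917 CPM in CIN 4, 5 and 6, against 0.402, 0.365 and 0.156 CPM in ctrl 4, 5 and 6. Cyp6a2, an enzyme that breaks down DDT, averaged 0.619 ± 0.086 CPM in CIN and 0.188 ± 0.142 CPM in ctrl (SD, n = 3 each). Without CIN 4, 0 members were higher at an unadjusted p under 0.05, and the same held without ctrl 5 and without ctrl 6.

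Those lower, beside Cyp4p2, Cyp4p1 and Cyp4g1, were Cyp12b2 and Cyp6a14. Cyp12b2 (2R:18754995-18757083), of the mitochondrial clan, measured 8.67, 3.96 and 6.42 CPM in CIN 4, 5 and 6, against 11.2, 14.7 and 8.68 CPM in ctrl 4, 5 and 6. The highest CIN and the lowest ctrl library nearly touched, and its log2 fold change was -0.86 ± 0.34 (SE; edgeR, adjusted p = 0.604). Cyp6a14 averaged 0.220 ± 0.050 CPM in CIN and 0.842 ± 0.535 CPM in ctrl (SD, n = 3 each; edgeR, adjusted p = 0.564). Among the largest negative values was Cyp4d1, at 0.304 ± 0.333 CPM in CIN and 1.03 ± 0.954 CPM in ctrl, with ctrl 4 at 2.13 CPM (edgeR, adjusted p = 0.703).

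**Figure D5:**
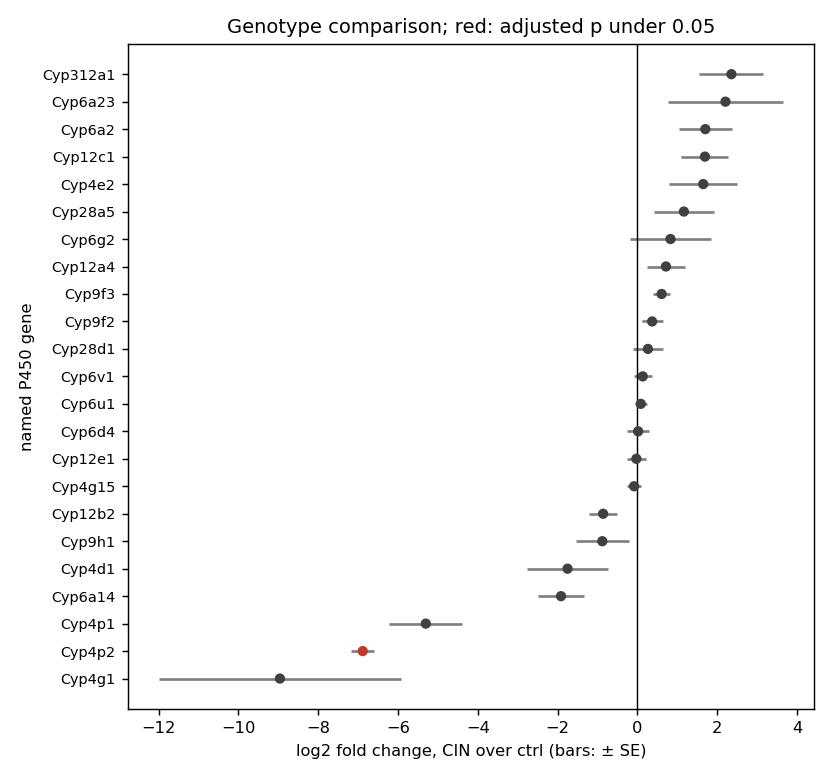
Log2 fold change of CIN over ctrl (points) with its SE (bars) for the 23 named P450 genes, ordered by size. Cyp4p2, in red at -6.88, is the gene past an adjusted p of 0.05, and Cyp4g1 has the widest bar, from the single library ctrl 5.

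Among the other abundant members the spread within a genotype exceeded the difference between genotypes. Cyp28a5 (2L:13977302-13979569) measured 66.7, 7.80 and 49.7 CPM in CIN 4, 5 and 6, against 28.3, 18.4 and 8.72 CPM in ctrl 4, 5 and 6, with CIN lower in batch 5 alone. Its relative Cyp28d1, linked to nicotine resistance, measured 41.6, 16.3 and 26.9 CPM in CIN 4, 5 and 6, against 33.1, 17.7 and 19.9 CPM in ctrl 4, 5 and 6. Cyp12a4 of the mitochondrial clan, linked to resistance to the insecticide lufenuron, averaged 15.8 ± 9.30 CPM in CIN and 9.61 ± 3.43 CPM in ctrl (SD, n = 3 each). Cyp9h1 measured 14.0, 2.02 and 5.72 CPM in CIN 4, 5 and 6, against 20.1, 10.7 and 9.19 CPM in ctrl 4, 5 and 6, and was lower in CIN in 3 of 3 batches while the groups overlapped. None of the 4 passed edgeR's test (adjusted p = 0.715, 0.861, 0.723 and 0.750 in the order named).

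Tandem arrays held 42 of the 78 members in 16 groups with gaps of at most 10 kb, and members of an array often differed. In the 8-gene array at 2R:14871366-14903095, 3 genes were expressed. Cyp6a9 and Cyp6a20, which is known for male aggression, both stood high in batch 4. Cyp6a9 measured 13.4, 1.39 and 4.48 CPM in CIN 4, 5 and 6, against 14.9, 4.58 and 3.89 CPM in ctrl 4, 5 and 6, and Cyp6a20 measured 9.79, 1.82 and 4.81 CPM in CIN 4, 5 and 6, against 9.48, 3.36 and 3.54 CPM in ctrl 4, 5 and 6. Cyp6a17, known for a role in temperature preference in mushroom body neurons, measured 7.20, 2.69 and 0.073 CPM in CIN 4, 5 and 6, against 7.15, 6.45 and 5.14 CPM in ctrl 4, 5 and 6. CIN 6 was low, with 2 counts, and the other 5 libraries had 68 to 181. Its neighbour Cyp6a23 is a close copy, so their reads may be shared, and in CIN 6 it measured 0.770 CPM, near the 0.740 CPM of ctrl 6. Cyp6a19 had at most 3 counts in a library. It shares 397 exon bases with Cyp6a9 on the opposite strand, so reads there cannot be told apart between these genes. In the Cyp9f array both genes were abundant, and in the Cyp12a array Cyp12a4 averaged 7.48 CPM per kilobase against 0.994 for Cyp12a5.

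Cyp18a1, the enzyme that inactivates ecdysone, measured 4.97, 0.792 and 1.83 CPM in CIN 4, 5 and 6, against 1.17, 2.64 and 1.64 CPM in ctrl 4, 5 and 6 (edgeR, adjusted p = 0.858). Among the 5 measured P450 genes of ecdysone synthesis that carry other names, dib, sad and spok were themselves on the ring gland list, and sad measured 1255, 2.18 and 281 CPM in CIN 4, 5 and 6, against 0.964, 615 and 337 CPM in ctrl 4, 5 and 6. Of the other measured ones, shd, which acts outside the gland, stayed between 1.66 and 3.54 CPM, and spo had at most 6 counts in a library, in CIN 5. Cyp301a1, needed for adult cuticle, measured 3.62, 3.28 and 3.30 CPM in CIN 4, 5 and 6, against 2.73, 2.07 and 2.96 CPM in ctrl 4, 5 and 6. Cyp303a1, needed for sensory bristles, averaged 1.12 ± 0.443 CPM in CIN and 0.748 ± 0.489 CPM in ctrl (SD, n = 3 each), and shares 919 exon bases with heix on the opposite strand. Cyp313b1 averaged 4.85 ± 0.427 CPM in CIN, against 3.24 ± 0.284 CPM in ctrl, and its groups did not overlap, nor did those of Cyp301a1 (edgeR, adjusted p = 0.627 and 0.740).

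Of the 26 members below the expression filter, 2 had every CIN library above every ctrl library, against 4.37% of all genes below the filter. They are given here after their values were seen and were not tested. Cyp313a3 (3R:12237138-12239266) had 9, 9 and 7 counts in CIN 4, 5 and 6, against 0 counts in each ctrl library. With 3 counts over the ctrl group as the floor this is 8.08-fold higher. That value takes the CIN counts as exact, so it is not a lower bound. Cyp4aa1 had 4, 4 and 2 counts in CIN 4, 5 and 6, against 0 counts in each ctrl library, 3.23-fold higher with the same floor and the same limit. It shares 334 exon bases with Strn-Mlck on the opposite strand. Both are at or under 0.358 CPM. A further 2, Cyp318a1 and Cyp4ac2, lay lower in CIN without overlap, against 4.78% of all genes below the filter. For Cyp4ac2, CIN 4 and ctrl 4 each had 6 counts, so its groups stood apart only through the scaling by library size. The 2 genes had 13 and 11 counts over the CIN libraries, against 31 and 26 counts over the ctrl libraries. Cyp9c1 had 1 count in all 6 libraries together.

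Among the genes that serve P450 enzymes none of those tested was called. Cyt-b5-r was placed on the electron partner list, and whether it serves P450 enzymes was not tested. It stayed below the expression filter, with 96, 0 and 0 counts in CIN 4, 5 and 6, against 6, 0 and 0 counts in ctrl 4, 5 and 6. Of the 5 tested electron partners, 1 had a positive and 4 a negative log2 fold change, with a median of -0.28. Cpr, the reductase of the endoplasmic reticulum enzymes, measured 134, 61.4 and 73.4 CPM in CIN 4, 5 and 6, against 77.2, 92.2 and 66.2 CPM in ctrl 4, 5 and 6. Cyt-b5, a second electron donor, measured 294, 112 and 206 CPM in CIN 4, 5 and 6, against 150, 337 and 197 CPM in ctrl 4, 5 and 6. Both thus had CIN 4 or ctrl 5 as their highest library, as many members did. The mitochondrial partners dare and Fdx1 stood at 11.1 to 14.8 and 7.88 to 8.35 CPM in CIN, against 15.5 to 18.5 and 7.36 to 12.6 CPM in ctrl. The 6 tested heme genes had a median of -0.077, with FeCH, the last enzyme of heme synthesis, at 48.7 to 68.8 CPM in CIN and 52.8 to 61.0 CPM in ctrl, and Alas, the first, at 42.5 to 65.1 CPM in CIN and 49.5 to 67.2 CPM in ctrl. The 3 epoxide hydrolases had a median of 0.0014, with Jheh2 at 95.2 to 166 CPM in CIN and 123 to 142 CPM in ctrl. The 11 regulators had 9 positive members and a median of 0.13, with cnc, the fly Nrf2, at 229 to 285 CPM in CIN and 225 to 259 CPM in ctrl, and EcR, the ecdysone receptor, at 165 to 202 CPM in CIN and 134 to 181 CPM in ctrl. Over these 4 lists edgeR called 0 genes, DESeq2 called 0, and 0 had p under 0.05 before adjustment in edgeR. The medians stand beside 0.0075 over all tested genes.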

How the data were processed

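The values deposited by the authors are raw counts, whole numbers for each gene in each library. The submitters' processing notes name Trim Galore, STAR 2.7.10a, featureCounts and the build dm6. Libraries were amplified for 13 cycles, per the labels' protocols, with a kit that does not mark strand. The counting options and annotation release were not given in the sources used here, so 19 members that share exon bases with another gene may share reads. Symbols were matched by identifier (14074 of 14150 genes). Coordinates, counted from 1, and exon lengths came from an Ensembl annotation of BDGP6, the assembly that dm6 names.

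Genes were kept by filterByExpr (10074, 52 of them members), scaled by TMM and tested with edgeR 4.0.16 in R 4.3.3 (glmQLFit, glmQLFTest) on genotype, two-sided. P-values were adjusted by Benjamini and Hochberg's method across every gene tested, at 0.05. The SE is the size of the log2 fold change over the square root of F. The fit was tested on simulated data. Batch differences are on log2(CPM + 0.5). DESeq2 1.42.0, limma 3.58.1 (voom) and other settings were alternatives. Replicates were brain pools collected on separate days, and p-values reflect that spread. With 3 libraries per genotype an exact permutation test cannot go below 0.1, so none was run.

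Batch numbers, which the labels give for both genotypes, pair the libraries. Deviations from the group mean, compared within a batch, correlated at 0.038, -0.062 and 0.175 for batches 4, 5 and 6. Named members were those called, Cyp4p1 and Cyp4p2, the 15 tested highest per kilobase, the 5 largest changes each way, those at an unadjusted p under 0.05 and those with 1 library at least 10 CPM and at least 10 times the median. Others are named to describe subfamilies, arrays and roles. The members and lists were chosen with earlier results of these data known. Sequences were not used here. Of the listed genes, phm, nvd, FASN3, Mal-A1 and Updo were among those not analysed here.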

Additional observations from a re-analysis of the deposited data

How the results depend on the processing

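Cyp4p2 was called lower by edgeR under RLE size factors, without TMM, without a filter, with a filter of 1 CPM in 3 libraries, by DESeq2 and limma-voom, without each library in turn, and in the added settings without both ctrl 4 and CIN 5 and without both CIN 4 and ctrl 5. These 2 were chosen after seeing the data. The number of P450 genes called lower was 1 in all of them except DESeq2, with 2 (Cyp4p1 added), and was 0 with the replicate block (Cyp4p2, log2 fold change -6.90, adjusted p = 0.0557). The pairing by batch changed no other call of a P450 gene. The number called higher was 0 in each setting. Over all genes, 5 were higher and 5 lower, against 52 and 55 by DESeq2, 0 and 0 with the replicate block (473 and 401 at an unadjusted p under 0.05), 0 higher and 1 to 3 lower without 1 library, 10 lower with the 1 CPM filter, 3 lower without both ctrl 4 and CIN 5, and 0 higher and 1 lower without both CIN 4 and ctrl 5. The cause was not tested. The median log2 fold change of the P450 genes was 0.14, from -0.15 to 0.30 without 1 library, 0.49 without both ctrl 4 and CIN 5, and -0.070 without both CIN 4 and ctrl 5. Some uncalled genes changed sign. Without 1 library, log2 fold changes ran from -0.13 to 0.59 for Cyp28d1, -0.054 to 0.16 for Cyp6u1, -0.36 to 1.43 for Cyp6g2, -1.55 to 2.91 for Cyp6a23, -0.24 to 0.20 for Cyp12e1, -0.21 to 0.21 for Cyp6d4, -0.20 to 0.073 for Cyp4g15 and -0.035 to 0.36 for Cyp6v1. Without both CIN 4 and ctrl 5 they were -0.30 for Cyp28d1, -0.071 for Cyp6u1 and -1.65 for Cyp6a23. Without both ctrl 4 and CIN 5 they were 0.029 for Cyp12e1, -0.31 for Cyp6d4, 0.027 for Cyp4g15 and -0.027 for Cyp6v1, and without TMM 0.016 for Cyp12e1. The count of 30 expressed P450 genes was 51 with 1 CPM in any library, and 22 to 44 under the other limits tried. By clan, the CYP2 count of 2 was 4 at 0.5 CPM and in any library and 0 at 2 CPM and in all 6 libraries, the CYP4 count of 5 was 10 at 0.5 CPM, 12 in any library and 3 in all 6, and the mitochondrial count of 5 was 9 in any library. Depth limits the 27 members under 1 CPM everywhere.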
